A study of Mus musculus with 9 samples.

Results

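The integrated stress response genes examined here are 10 genes taken by name from the gene table: the transcription factors Atf4, Atf5 and Ddit3, their targets Trib3, Asns, Chac1 and Sesn2, the phosphatase regulator Ppp1r15a, and the kinases Eif2ak3 and Eif2ak4. The table listed 55414 genes, and 9 of the 10 had reads and entered the tests, among 25128 genes tested. The cells were round spermatids (RS), the haploid germ cells that follow meiosis, and were labelled as wild type mouse testis. Germ cells were sorted by tdTomato fluorescence and size from Stra8-Tom mice on a C57Bl/6 background, in which the germline driver Stra8-iCre switches on a CAG-lox-stop-lox-tdTomato reporter. Prepubertal and adult mice were used in the study, and which of them gave the cells of these libraries is not given in the sources used here. RS were kept in culture for 24 h in medium that held lactate, pyruvate, glutamine and dialyzed serum. All received 0.15% DMSO, and they received either nothing else (vehicle, libraries 1 to 3), 24 mM oxamate (libraries 4 to 6), or 24 mM oxamate and 0.3 mM octyl-L2HG (libraries 7 to 9). Oxamate inhibits lactate dehydrogenase, and octyl-L2HG is a cell-permeable ester of L-2-hydroxyglutarate. No library had octyl-L2HG alone. Cells were incubated in triplicate for each treatment, and nothing in the sources says that the 3 libraries of a group came from separate mice, so the p-values measure the spread between incubations, which may not reflect the spread between animals.

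The integrated stress response starts with kinases that sense a strain and phosphorylate the translation factor eIF2. PERK, encoded by Eif2ak3, senses unfolded protein in the endoplasmic reticulum, and GCN2, encoded by Eif2ak4, senses uncharged tRNA when amino acids are short. Phosphorylated eIF2 slows most protein synthesis and favours translation of a few mRNAs, ATF4, ATF5, CHOP (encoded by Ddit3) and GADD34 (encoded by Ppp1r15a) among them. ATF4 then raises transcription of genes for amino acid supply and for feedback, often from a composite element that it binds with a C/EBP partner. Read counts measure mRNA and say nothing of translation or eIF2 phosphorylation. In these bulk samples, a change in transcript per cell and a change in the share of cells that carry it cannot be told apart.

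The letters of that composite element, TGATGNAA, were searched on both strands of RefSeq promoter windows, each running from 250 bases before to 50 bases after a transcription start (build GRCm38.p6). All 10 genes had a window, 12 windows in all, and Chac1, Trib3 and Asns each held 1 match, against 3.97% of all 32851 windows. Of these 3 targets, Chac1 rose with oxamate, Asns was not called with oxamate, and Trib3 had no reads. Chac1 and Asns were both lower on adding octyl-L2HG. The matches are shown with 10 bases on each side, written so that the element reads forward, with the element in capitals.
Chac1: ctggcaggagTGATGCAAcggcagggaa
Asns: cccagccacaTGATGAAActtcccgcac
Trib3: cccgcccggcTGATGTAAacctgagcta
The Chac1 match lay at chr2:119351049-119351056 on the strand opposite to the gene and ended 186 bases before the start. The Asns match lay at chr6:7693225-7693232 on the strand of the gene, 16 bases before the start. The Trib3 match lay at chr2:152344039-152344046 on the opposite strand and began 15 bases after the start. A match is a run of letters and not a measured binding site, and its absence from the other windows says only that these letters are not there. The whole windows of the largest rise and the largest fall among the 10 genes are shown on the strand of the gene, again with the element in capitals, as Chac1 at chr2:119350992-119351291 (plus strand) and Asns at chr6:7693160-7693459 (minus strand).
Chac1 promoter: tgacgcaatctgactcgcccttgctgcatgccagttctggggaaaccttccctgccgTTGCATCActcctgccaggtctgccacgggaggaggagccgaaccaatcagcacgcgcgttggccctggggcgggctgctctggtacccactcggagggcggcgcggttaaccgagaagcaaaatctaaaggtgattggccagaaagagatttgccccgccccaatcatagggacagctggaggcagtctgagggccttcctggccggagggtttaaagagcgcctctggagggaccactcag
Asns promoter: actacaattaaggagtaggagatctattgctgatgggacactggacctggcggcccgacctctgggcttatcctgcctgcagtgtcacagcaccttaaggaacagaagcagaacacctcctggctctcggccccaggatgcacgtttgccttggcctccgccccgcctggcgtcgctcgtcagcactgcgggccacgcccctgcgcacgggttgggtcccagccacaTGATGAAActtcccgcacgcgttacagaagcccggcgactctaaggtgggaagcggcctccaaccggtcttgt

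With oxamate, 3 of the 9 genes tested rose against vehicle, namely Chac1, Atf5 and Sesn2, and none fell. Across all genes tested, 5.19% were called in this comparison, 3.97% higher and 1.22% lower. The count of 0 falls was the same by edgeR at an unadjusted p under 0.05 and by DESeq2. Adding octyl-L2HG to oxamate lowered Asns and Chac1 and raised none of the 9, a count of 0 that was also the same at an unadjusted p under 0.05 and by DESeq2. In that comparison 11.2% of all genes were called, 3.18% higher and 8.06% lower. Against vehicle, the cells given both compounds had more Chac1, Sesn2 and Atf5 transcript and less Asns transcript, where 18.0% of all genes were called, 7.48% higher and 10.6% lower. The same 4 genes passed the test of any difference among the 3 groups, which 19.8% of all genes passed. With total counts as the scaling, 421 genes were higher and 2516 lower on adding octyl-L2HG, against 798 and 2025 here, and 1231 higher and 3367 lower for both compounds against vehicle, against 1879 and 2655 here. Other choices moved the split the other way: on adding octyl-L2HG, DESeq2 called 1258 higher and 1627 lower and edgeR without the filter 1429 and 1797, and for both against vehicle they called 2161 and 2017, and 2690 and 2421. The comparisons share libraries and are not independent of each other.

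**Figure D1:**
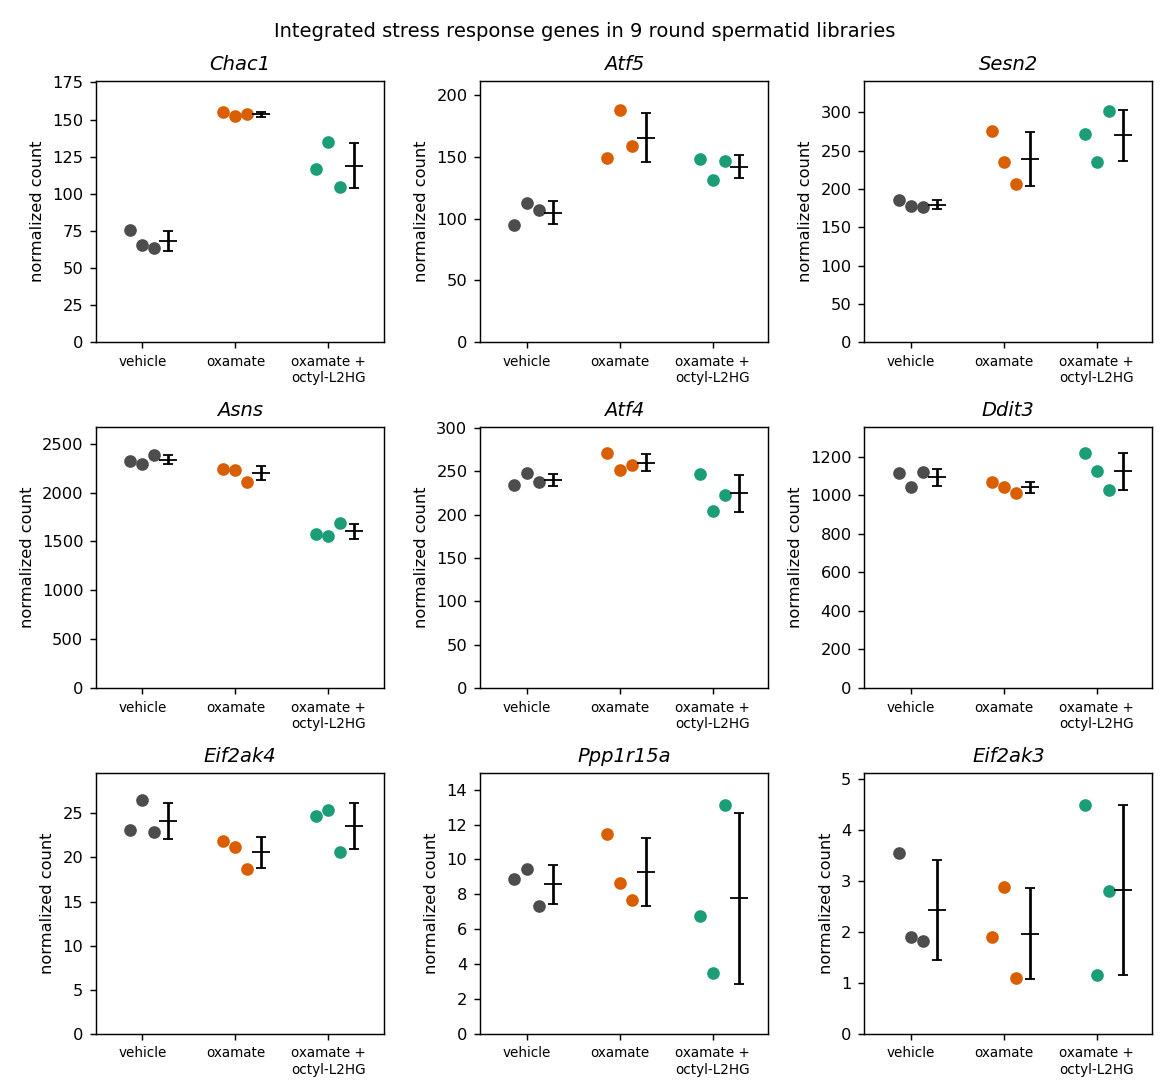
Normalized read count of the 9 genes with reads in each library, with the axis starting at 0; points are libraries and the bar beside them is the mean ± SD of 3. The 3 oxamate libraries of Chac1 sit between 152 and 155, above all vehicle libraries, and the 3 libraries with both compounds of Asns sit between 1550.4 and 1692, below the other 6.

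Chac1 (ENSMUSG00000027313), which encodes an enzyme that breaks down glutathione, had the largest response. Its normalized read count was 75.5, 65.4 and 63.2 in the vehicle libraries, 155, 152 and 154 with oxamate, and 117, 135 and 105 with both compounds. The 3 groups did not overlap, and every library with both compounds lay between the vehicle and the oxamate libraries. The rise with oxamate was 2.26-fold, a log2 fold change of 1.18 (SE 0.13, edgeR adjusted p = 1.08e-05), and it ranked 50 among the 997 genes called higher. With both compounds Chac1 was still above vehicle, by 0.77 on the log2 scale (SE 0.14, edgeR adjusted p = 0.000349). The fall from oxamate to both compounds was smaller, with a log2 fold change of -0.40 (SE 0.12, edgeR adjusted p = 0.0378). That fall was called under 6 of 16 alternative fits (another test, other scalings and filters, a fit of only the groups in question, and fits without each library), where its adjusted p ran from 0.0218 to 0.181, and leaving out library 3, 5, 6, 7 or 9 removed the call (-0.50 to -0.32 over the 9 fits without a library).

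Atf5 (ENSMUSG00000038539), a bZIP transcription factor of the response, rose with oxamate as well. It stood at 95.1, 113 and 107 in vehicle, at 149.6, 188 and 159 with oxamate, and at 148, 131 and 147 with both compounds. Each oxamate library was above each vehicle library, and the rise was 1.58-fold, or 0.66 on the log2 scale (SE 0.12, edgeR adjusted p = 0.00207). Libraries with both compounds again lay between the other groups, although the highest of them reached almost the lowest oxamate library. The step from oxamate to both compounds did not pass the test (log2 fold change -0.24, 95% interval -0.49 to 0.010, edgeR adjusted p = 0.236). Against vehicle the level with both compounds was higher by 0.42 (SE 0.13, edgeR adjusted p = 0.0243), a call that was lost with total counts as the scaling and without library 1, 7 or 9 (0.35 to 0.48 with a library left out). Nup62 and Il4i1 lie on the opposite strand and overlap Atf5 over 571 and 272 bases, and whether reads were counted by strand is not given in the sources used here. Neither was called with oxamate, with log2 fold changes of 0.17 and 0.022.

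Sesn2 (ENSMUSG00000028893) encodes sestrin 2, a leucine sensor that restrains mTORC1. Vehicle libraries had 186, 177 and 176 normalized counts, oxamate libraries 276, 236 and 206, and libraries with both compounds 272, 235 and 302. All 6 treated libraries were above the 3 vehicle libraries, and the treated groups overlapped each other. The clearer difference was between both compounds and vehicle, at 0.57 on the log2 scale (SE 0.12, edgeR adjusted p = 0.00171), which all 16 alternatives kept past the threshold. The rise with oxamate alone was 0.42 (SE 0.12, edgeR adjusted p = 0.0437) and passed under 5 of 16 alternatives, with an adjusted p from 0.00888 to 0.151. Only the fit without library 6 kept it among the 9 that left out a library, and without library 4, the highest of its group, it was 0.30. From oxamate to both compounds the change was 0.15 (95% interval -0.097 to 0.39, edgeR adjusted p = 0.507).

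Asns (ENSMUSG00000029752), which encodes the enzyme that makes asparagine from aspartate with glutamine as nitrogen donor, followed a different course. Its counts were 2323, 2295 and 2387 in vehicle, 2245, 2232 and 2112 with oxamate, and 1571, 1550.4 and 1692 with both compounds. The 3 libraries with both compounds were below the other 6. Oxamate alone left a log2 fold change of -0.083 (95% interval -0.22 to 0.058, edgeR adjusted p = 0.592), although its 3 libraries were all just below the vehicle libraries. Adding octyl-L2HG lowered Asns by 28.2%, a log2 fold change of -0.48 (SE 0.069, edgeR adjusted p = 9.88e-05). Against vehicle the fall was 32.3%, or -0.56 on the log2 scale (SE 0.069, edgeR adjusted p = 5.88e-06). All 16 alternatives called the falls in both comparisons.

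**Figure D2:**
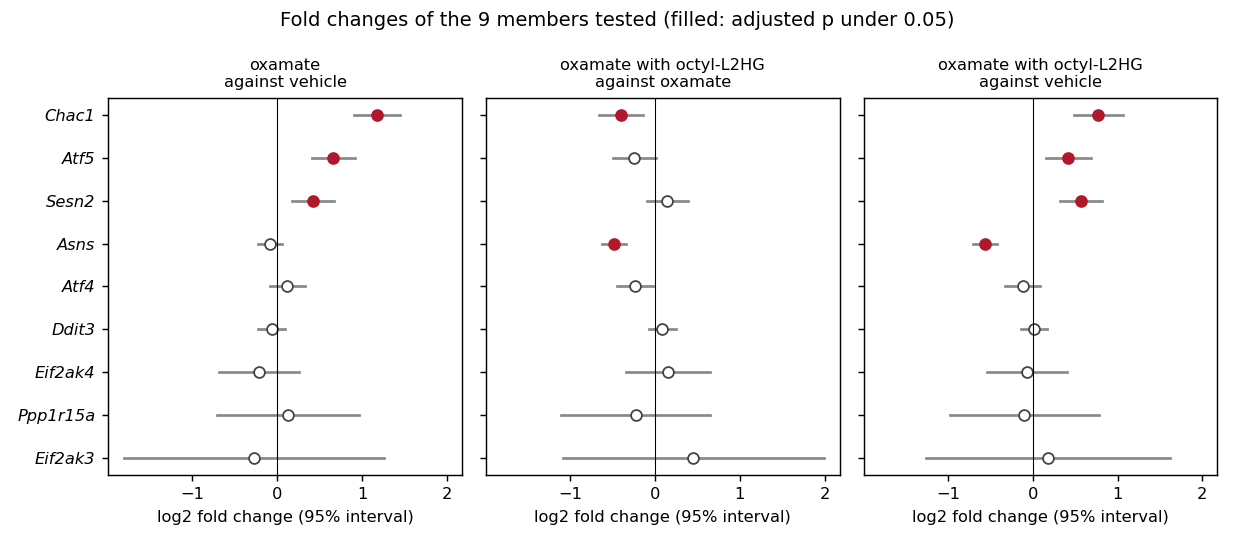
Log2 fold changes of the 9 genes tested in the 3 comparisons, with 95% intervals from edgeR; filled points have an adjusted p under 0.05. Chac1 and Atf5 lie to the right of 0 with oxamate and with both compounds against vehicle, Asns lies to the left of 0 in the comparisons with both compounds, and the intervals of Ppp1r15a and Eif2ak3 are the widest.

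The mRNA of Atf4 (ENSMUSG00000042406) itself, the central factor of the response, changed little. It was at 235, 248 and 237 in vehicle, 271, 251 and 258 with oxamate, and 247, 204 and 223 with both compounds. The oxamate libraries were the 3 highest of the 9, but by a margin that did not pass the test (log2 fold change 0.12, SE 0.098, 95% interval -0.084 to 0.32, edgeR adjusted p = 0.595). Both compounds gave less than oxamate alone in every library, again short of the threshold (-0.24, 95% interval -0.44 to -0.028, edgeR adjusted p = 0.145). Against vehicle the difference was -0.12 (edgeR adjusted p = 0.484). The upper bound of the rise with oxamate, a fold of 1.25, was below the lower bound for Chac1, a fold of 1.87, each from its own 95% interval.

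Ddit3, which encodes the factor CHOP, was well expressed and nearly level. Its normalized counts were 1115, 1044 and 1123 in vehicle, 1068, 1043 and 1012 with oxamate, and 1222, 1125 and 1026 with both compounds. The groups overlapped in each comparison. The log2 fold changes were -0.067 with oxamate (95% interval -0.23 to 0.091, edgeR adjusted p = 0.725), 0.083 on adding octyl-L2HG (-0.076 to 0.24, edgeR adjusted p = 0.58) and 0.016 for both against vehicle (-0.14 to 0.17, edgeR adjusted p = 0.927). The last of these took the other sign with total counts as the scaling. The table lists Ddit3 under another identifier too, ENSMUSG00000116429, with 0 reads in every library. In GENCODE vM21 its span lies wholly within that of ENSMUSG00000025408, whose values are given here, and it has 105 exon bases against 1713, so reads that fell in both models may not have been counted.

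Trib3 (ENSMUSG00000032715), a pseudokinase that feeds back on ATF4 and is a widely used mark of the response, had 0 reads in all 9 libraries. A count of 0 in a single library allows up to 3 reads in that library, a limit that covers counting error only. A count of 0 in all 9 sets a tighter limit per library. Ppp1r15a (ENSMUSG00000040435), whose product GADD34 directs the phosphatase that restores eIF2, was barely present, with 3 to 14 reads per library and 79 in all. Its log2 fold change with oxamate was 0.13 (95% interval -0.71 to 0.97), and a change within those bounds was not detectable at this depth. Tulp2, with 338613 reads on the opposite strand, overlaps Ppp1r15a over 717 bases.

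Both sensor kinases among the 10 genes had few reads. Eif2ak3 (ENSMUSG00000031668, PERK) had 1 to 4 reads per library and 22 in all (log2 fold change with oxamate -0.27, 95% interval -1.80 to 1.26), so a change of that size could not be seen at this depth. Eif2ak4 (ENSMUSG00000005102, GCN2) had 17 to 28 reads per library. Its normalized counts were 23.1, 26.5 and 22.9 in vehicle, 21.9, 21.2 and 18.6 with oxamate, and 24.7, 25.4 and 20.6 with both compounds. The oxamate libraries were the lower ones against vehicle, with a log2 fold change of -0.22 (95% interval -0.69 to 0.25, edgeR adjusted p = 0.71).

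Per kilobase of exon, the order of the transcript levels in vehicle was Asns at 854 normalized counts, Ddit3 at 639, Atf4 at 102, Atf5 at 52.7, Sesn2 at 51.7, Chac1 at 41.6, Eif2ak4 at 3.24, Ppp1r15a at 2.92 and Eif2ak3 at 0.403. The ranges of Atf5 and Sesn2 overlapped, as did those of Eif2ak4 and Ppp1r15a, and all other neighbours were apart. With oxamate Chac1 moved to 93.8, above Sesn2 at 68.9, while its range of 92.9 to 94.9 overlapped that of Atf5, 75.0 to 94.2. With both compounds the mean of Ddit3 was 656 and that of Asns 587, with overlapping ranges, and Sesn2 at 77.6, Chac1 at 72.6 and Atf5 at 71.4 overlapped.

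**Figure D3:**
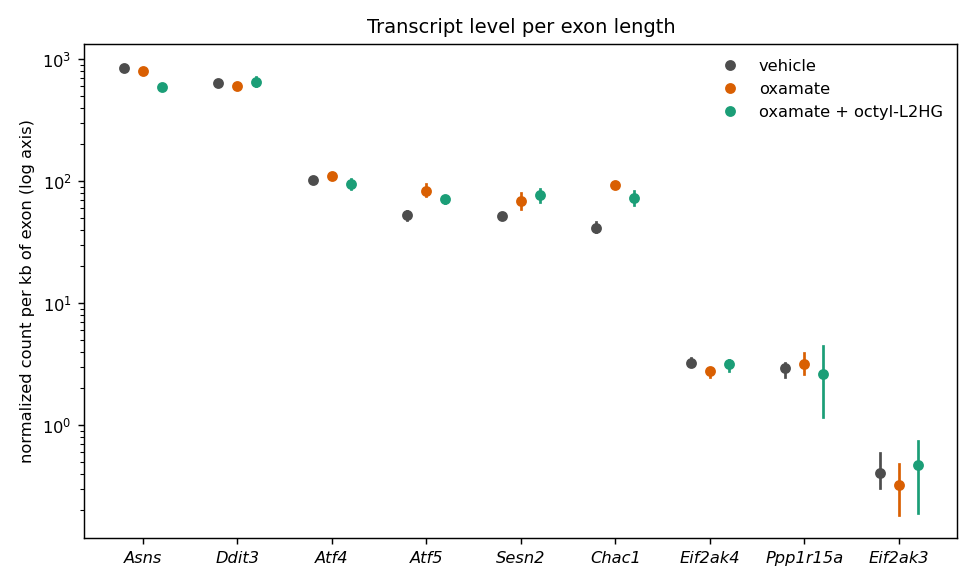
Normalized read count per kilobase of exon, on a log axis, for the 9 genes with reads; points are group means and lines run from the lowest to the highest of 3 libraries. Asns and Ddit3 lie at 587 or more in all groups, whereas Eif2ak4, Ppp1r15a and Eif2ak3 are at 3.24 or less.

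The genes whose pattern over the 9 libraries was most like that of Atf4, among 10714 genes that averaged 100 normalized counts or more, were Rad51b (Pearson's r = 0.93), Kti12 (0.90) and Plcg2 (0.90). Those most like Ddit3 were 1700125G22Rik (0.93), Gm49077 (0.93) and Mxra8os (0.92). These are the top of a long ranking over libraries that fall into 3 treatments, and are given as a description. Trib3 had no pattern to compare.

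Beyond the 10 genes, 96 related genes in 9 lists were read in the same fit, of which 89 were tested. With oxamate 9 of the 89 rose and 1 fell, or 10.1% and 1.12%, where 3.97% and 1.22% of all genes did, with a median log2 fold change of 0.047 against -0.011 over all genes. On adding octyl-L2HG 4 rose and 7 fell, or 4.49% and 7.87% against 3.18% and 8.06% of all genes, with a median of -0.0090 against -0.038. Both compounds against vehicle gave 14 higher and 6 lower, or 15.7% and 6.74% against 7.48% and 10.6% of all genes, with a median of 0.042 against -0.045. These shares of all genes are the background for the counts in each list that follows. The medians of all genes depend on genes of low count. Over the 12584 genes that averaged 50 normalized counts or more, they were 0.0069 with oxamate, 0.00068 on adding octyl-L2HG and 0.021 for both against vehicle. The 89 related genes were not filtered in that way.

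Upstream of ATF4, sensing and eIF2 genes did not pass the test with oxamate, except Ppp1r15b. This gene encodes CReP, the constitutive partner of the eIF2 phosphatase, and had 523 ± 48.3 normalized counts in vehicle, 683 ± 60.2 with oxamate and 720.2 ± 16.8 with both compounds (SD, n = 3). It rose by 0.39 with oxamate (SE 0.089, edgeR adjusted p = 0.0103) and stood 0.44 above vehicle with both compounds (SE 0.089, edgeR adjusted p = 0.00117). Eif2ak1, which encodes HRI, a kinase of heme shortage and mitochondrial stress, had 1308 ± 41.6 normalized counts in vehicle and 1391 ± 43.2 with oxamate. It rose to 1666 ± 58.2 with both compounds, 0.33 above vehicle (SE 0.069, edgeR adjusted p = 0.00177). Dele1, which relays mitochondrial stress to HRI, was also higher with both compounds than in vehicle (0.28, edgeR adjusted p = 0.0319), as was Nck1 (0.25, edgeR adjusted p = 0.0361), each under 9 of 16 alternatives. Of the 9 genes for eIF2 and eIF2B, 1 was called, Eif2s1, which encodes the subunit that the kinases phosphorylate. It rose on adding octyl-L2HG, by 0.26 (SE 0.069, edgeR adjusted p = 0.0152). Among bZIP partners none of 8 tested was called with oxamate, where 0 passed at an unadjusted p under 0.05. Atf3 and Jdp2 had too few reads to be tested, and Nfe2l2, the oxidative stress factor, was lower with both compounds than in vehicle (-0.37, edgeR adjusted p = 0.029). With a library left out, Ppp1r15b with oxamate was 0.32 to 0.47 and lost its call without library 2 or 3 and in the fit of only the groups in question, Eif2s1 was 0.20 to 0.31 and lost it without library 7 or 8, and Nfe2l2 was -0.47 to -0.26 and lost it without library 2, 3, 7, 8 or 9. Dele1 (0.23 to 0.33) lost its call without library 2, 3, 7, 8 or 9, and Nck1 (0.22 to 0.30) without library 1, 3, 7, 8 or 9, and both lost it with total counts as the scaling or the length correction.

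Among targets of ATF4 that supply amino acids, the transporters Slc1a5 and Slc7a3 rose with oxamate and fell back. Slc1a5, a carrier of glutamine and other neutral amino acids, had 126, 139 and 154 normalized counts in vehicle, 191, 205 and 216 with oxamate, and 124, 131 and 141 with both compounds, listed from low to high. The oxamate libraries were above all 6 others, and the other groups overlapped. Its log2 fold changes were 0.55 with oxamate (SE 0.11, edgeR adjusted p = 0.00388) and -0.66 on adding octyl-L2HG (SE 0.11, edgeR adjusted p = 0.000681). Slc7a3, a carrier of arginine and lysine, rose from 51.0 ± 1.40 to 80.5 ± 4.40 with oxamate and was at 43.5 ± 9.97 with both compounds (SD, n = 3). Those changes were 0.66 (SE 0.16, edgeR adjusted p = 0.017) and -0.89 (SE 0.17, edgeR adjusted p = 0.00159), the rise being lost without library 2, 3 or 6 (0.62 to 0.68 with a library left out). The other 7 transporters tested were not called in any comparison. Of the 13 amino acid synthesis genes, 0 were called by edgeR with oxamate, and 2 were lower at an unadjusted p under 0.05.

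Among 13 genes of tRNA charging, 12 aminoacyl-tRNA synthetases and the tRNA exporter Xpot, 3 rose with oxamate and none fell by edgeR, where 0 were lower at an unadjusted p under 0.05. Tars, which encodes threonyl-tRNA synthetase, had 111, 113 and 125 normalized counts in vehicle, 173, 181 and 194 with oxamate, and 142, 145 and 150.5 with both compounds, listed from low to high. As for Chac1, the groups did not overlap and both compounds gave the middle level. Unlike for Chac1, that level did not pass the test against vehicle (0.30, edgeR adjusted p = 0.0713, called under 3 of 16 alternatives). The rise of Tars with oxamate was 0.66 (SE 0.11, edgeR adjusted p = 0.000798), and its fall on adding octyl-L2HG was -0.35 (edgeR adjusted p = 0.0404), called under 4 of 16 alternative fits. Cars, for cysteinyl-tRNA synthetase, rose by 0.42 and Xpot by 0.38 with oxamate (edgeR adjusted p = 0.0012 and 0.00329), and both stayed above vehicle when octyl-L2HG was added, by 0.35 and 0.32 (edgeR adjusted p = 0.00162 and 0.00412). Eprs, for the enzyme that charges glutamate and proline tRNA, rose on adding octyl-L2HG, by 0.27 (edgeR adjusted p = 0.0217), with -0.035 for oxamate alone (edgeR adjusted p = 0.884). Leaving out library 5, 7, 8 or 9 removed the call of Eprs (0.21 to 0.32 over the fits without a library), as did total counts as the scaling, and among those fits only the one without library 1 kept the fall of Tars (-0.39 to -0.30).

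Other targets of ATF4 and CHOP went both ways, with 1 of 17 tested higher and 1 lower with oxamate. Bcl2l11, which encodes the pro-apoptotic protein BIM, fell at each step, from 281 ± 26.4 normalized counts in vehicle to 206 ± 14.4 with oxamate and 149 ± 19.0 with both compounds (SD, n = 3). Its log2 fold changes were -0.44 and -0.49 for the 2 steps (edgeR adjusted p = 0.0183 and 0.00933) and -0.94 for both compounds against vehicle (SE 0.11, edgeR adjusted p = 6.19e-06). Sesn3, a paralog of Sesn2, was at 1812 ± 69.6 in vehicle, 1888 ± 55.4 with oxamate and 2282 ± 18.8 with both compounds, and rose on adding octyl-L2HG (0.25, edgeR adjusted p = 0.017). The call of Sesn3 was lost with total counts and without library 5, 7, 8 or 9 (0.23 to 0.27 with a library left out), that of Bcl2l11 with oxamate without library 1, 2 or 6 (-0.51 to -0.37), and that of its fall on adding octyl-L2HG without library 5 or 7 (-0.56 to -0.40). Ero1a, an oxidase of protein folding in the endoplasmic reticulum, was lower with both compounds than in vehicle (-0.61, edgeR adjusted p = 0.00399). Gdf15 and Gadd45a, often read as signs of the response, had too few reads to be tested.

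In the IRE1 and ATF6 arms of the unfolded protein response, which run beside PERK, 2 of 10 genes rose with oxamate and both were lower again on adding octyl-L2HG. The other 8 were not called with oxamate, although at an unadjusted p under 0.05 the list had 5 higher and 0 lower. Ern1, which encodes the sensor IRE1, had 117 ± 25.7 normalized counts in vehicle, 229 ± 15.3 with oxamate and 163 ± 17.0 with both compounds (SD, n = 3), with log2 fold changes of 0.97 and -0.51 (edgeR adjusted p = 0.000113 and 0.0121). Pdia4, a disulphide isomerase of the endoplasmic reticulum, was at 549.6 ± 51.0, 923 ± 77.0 and 675 ± 9.89, with changes of 0.75 and -0.48 (edgeR adjusted p = 1.08e-05 and 0.000722). The fall of Ern1 was not called without library 7 or 9, where leaving out a library gave -0.59 to -0.44. With both compounds Ern1 and Pdia4 were still above vehicle, by 0.46 and 0.27 (edgeR adjusted p = 0.0242 and 0.0278). Those calls held under 11 and 10 of 16 alternatives.

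**Figure D4:**
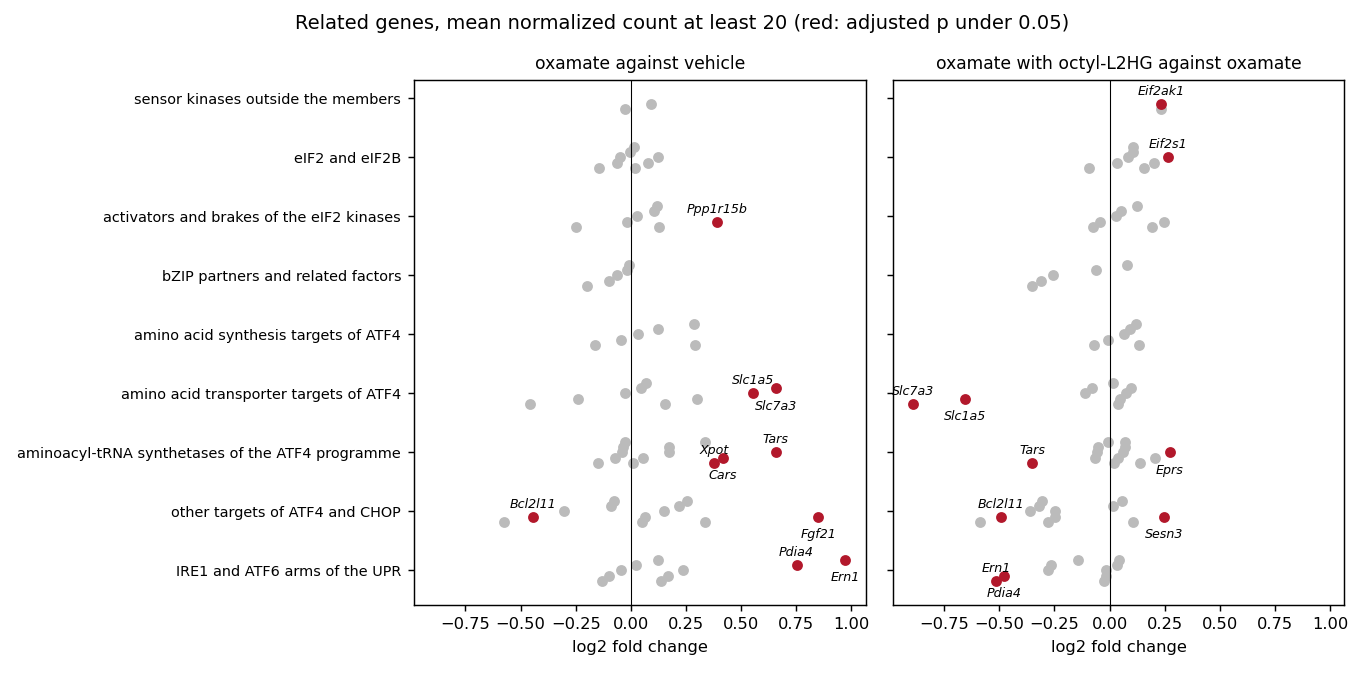
Log2 fold changes of the related genes that averaged 20 normalized counts or more, by list, for oxamate against vehicle (left) and for octyl-L2HG added to oxamate (right); each point is a gene, and red points have an adjusted p under 0.05. Ern1, Pdia4, Slc1a5, Slc7a3 and Tars are red on the right of 0 in the first panel and on the left of 0 in the second.

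The libraries held 32339533 to 39888396 counted reads. Each of 12 round spermatid markers had a mean of at least 50 normalized counts. Their summed level was 94002 to 98298 in vehicle, 90486 to 91185 with oxamate and 85854 to 87338 with both compounds, and 4, 6 and 8 of the 12 were lower in the 3 comparisons in turn, Tnp1, Tnp2, Prm1 and Prm2 among them. The list went both ways, since 2 of the 12, Acrv1 (0.25, edgeR adjusted p = 0.0103) and Acr (0.21, edgeR adjusted p = 0.0284), were higher with both compounds than in vehicle. The 10 pachytene spermatocyte markers summed to 42046 to 45790 in vehicle, 41094 to 43950.0 with oxamate and 44992 to 45208 with both compounds. Sums of the treated groups did not overlap, but their largest part was Tbpl1, with means of 23621, 22115 and 25186 in the 3 groups. On adding octyl-L2HG 0 of the 10 were called, Tbpl1 included (0.16, edgeR adjusted p = 0.0855). At an unadjusted p under 0.05, 1 was higher there and 1 lower. Piwil1 was called higher with oxamate (0.26, edgeR adjusted p = 0.032). The sum of 8 spermatogonium markers was 268 to 282 in vehicle, 291 to 307 with oxamate and 273 to 293 with both compounds. Its higher level with oxamate rested mainly on Gfra1 (means of 126 and 161), while the median log2 fold change of the list was -0.11. The sum of 6 macrophage markers, 1 of them without reads, was 129 to 162 in vehicle, 112 to 124 with oxamate and 117 to 140.4 with both compounds. Its lower level with oxamate rested on Adgre1 (means of 76.4 and 62.2) and Ptprc (30.0 and 18.9), while Csf1r and Cd68 had log2 fold changes of 0.12 and 0.49. The sum of 6 Leydig cell markers was 28.4 to 38.2 in vehicle, 19.7 to 27.6 with oxamate and 32.3 to 40.3 with both compounds. None of the genes of these 3 lists was called by edgeR with oxamate, where 1 was higher and 2 were lower at an unadjusted p under 0.05. Sertoli cell markers (8 genes) stayed between 4.49 and 9.77 in all libraries. Peritubular and endothelial markers (6 genes) summed to 470.1 to 525 in vehicle, 448 to 465 with oxamate and 341 to 385 with both compounds. Most of that sum was Vwf, at 389.5 to 444, 339 to 374 and 267 to 314, the only gene of that list called, lower with both compounds against either group. The part of these shifts in the results above was not tested. Without library 4 the genes called with oxamate went from 1303 to 2288. Chac1 and Atf5 were called with and without it, and Sesn2 was not called without it.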

How the data were processed

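RNA of RS was sequenced from poly(A)-selected stranded libraries, 3 per group and 9 in all. The authors trimmed reads with cutadapt 2.10, aligned them with TopHat2 2.1.1 to the mouse genome (GRCm39 in the submitters' processing notes) and deposited raw counts of reads per gene from HTSeq 2.01. The strand setting of the counting is not given in the sources used here. The authors also deposited a normalized signal, the count divided by 1 size factor per library from DESeq2 1.36.0, which is the normalized read count given here. Of 55414 genes listed, 6250 had no value.

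Genes whose counts added up to 10 or more across the libraries, 25128 in all, entered a test in edgeR 4.0.16 under R 4.3.3 (TMM scaling, all 9 libraries in 1 robust quasi-likelihood fit, Benjamini-Hochberg adjustment over all genes tested, threshold 0.05, two-sided). The test was checked on simulated data, for oxamate against vehicle. It recovered 100 of 100 genes changed 2-fold and 47 of 100 changed 1.3-fold, none of them of low count. Among 24627 genes, 8 unchanged ones were called. A change of 1.3-fold was thus often missed. Alternatives were DESeq2 1.42.0, its size factors, total counts, no filter or filterByExpr, only the groups in question, each library left out and a threshold of 0.01. A correction for transcript length was chosen after seeing the data. Exon lengths came from GENCODE vM21 (GRCm38) by gene identifier, and promoter sequences from RefSeq (GRCm38.p6). No GRCm39 coordinates are given.

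The 10 genes and the related lists were chosen with earlier results of these data known. Related genes were named where they were among the 3 largest changes of their list in a comparison, past the threshold, and averaged 50 normalized counts or more. Atf3, Jdp2, Gdf15, Gadd45a and the cell type markers, and in the closing section Phgdh, Cdkn1a, Fgf21 and Iars, were named after their values were seen. Groups share no replicate number, so no pairs were formed.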

Additional observations from a re-analysis of the deposited data

How the results depend on the processing

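Under the 16 alternative fits, 393 of 429 fold changes of the 10 genes kept their direction and side of the threshold, 25 lost the call and 11 took the other sign. The genes called numbered 1303 with oxamate, 2823 on adding octyl-L2HG, 4534 for both against vehicle and 4974 in the joint test of any difference among the 3 groups. A threshold of 0.01 gave 602, 1261, 2607 and 2774. Leaving out each library gave 659 to 2288, 1396 to 4415, 2970 to 6194 and 3154 to 7328, with library 2 or 7 left out at the low ends and library 4 at the high ends. A fit of only vehicle and oxamate gave 723. On adding octyl-L2HG, the genes among the 10 called lower went from 2 to 1 (Asns) with DESeq2, its size factors, no filter, only the groups compared, the threshold of 0.01 or the length correction, and were 1 to 2 with a library left out. The causes were not tested.

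Signs changed as follows. With total counts Dnajb9 and Iars on adding octyl-L2HG were -0.0049 and -0.0053 and Ddit3 with both against vehicle -0.047, and with the length correction Dele1 and Sesn3 with oxamate were -0.042 and -0.036. With a library left out, oxamate against vehicle ranged from -0.63 to 0.10 for Eif2ak3, -0.061 to 0.24 for Ppp1r15a, -0.11 to 0.11 for Dele1, -0.18 to 0.074 for Nfe2l2, -0.11 to 0.031 for Eprs and -0.091 to 0.011 for Eif2s1. On adding octyl-L2HG the ranges were -0.88 to 0.10 for Ppp1r15a, -0.00063 to 0.076 for Dnajb9 and -0.012 to 0.12 for Ppp1r15b. Both against vehicle ranged from -0.043 to 0.075 for Ddit3, -0.25 to 0.55 for Eif2ak3, -0.12 to 0.025 for Eif2ak4 and -0.75 to 0.23 for Ppp1r15a. No paired analysis was possible because the groups share no replicate number. Depth limits Trib3, Ppp1r15a, Eif2ak3 and Eif2ak4.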

Other observations

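Among related genes of low count, Phgdh, which encodes the entry enzyme of serine synthesis, stood out. It had 30.8 ± 4.06 normalized counts in vehicle, 19.4 ± 5.17 with oxamate and 8.77 ± 3.61 with both compounds (SD, n = 3). Both compounds against vehicle gave a log2 fold change of -1.86 (SE 0.31, edgeR adjusted p = 0.000194), and the step from oxamate to both compounds gave -1.20 (SE 0.35, edgeR adjusted p = 0.0282), a call lost without library 4, 6, 7 or 9 (-1.44 to -0.86 with a library left out). Cdkn1a, the cell cycle inhibitor p21, was at 58.9 ± 5.48, 39.4 ± 1.95 and 33.9 ± 5.16, and was lower with both compounds than in vehicle (-0.83, SE 0.18, edgeR adjusted p = 0.00217).

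The composite element TGATGNAA was found in the promoter windows of 16 of the 75 related genes that had a window, and 14 of the 16 were tested. With oxamate 2 of the 14 rose, Tars and Fgf21, and none fell, where 3.97% of all genes rose and 1.22% fell. On adding octyl-L2HG 0 of the 14 were called higher by edgeR and 1, Tars, was called lower, where 3.18% and 8.06% of all genes were. Fgf21, a secreted hormone and ATF4 target, went from 25.1 ± 2.90 normalized counts in vehicle to 45.4 ± 8.31 with oxamate (log2 fold change 0.85, SE 0.21, edgeR adjusted p = 0.017) and was at 30.6 ± 5.58 with both compounds. Its rise was not called without library 1, 2 or 6 (0.71 to 0.94 with a library left out). With both compounds against vehicle 2 of these 14, or 14.3%, were called, where 18.0% of all genes were called and 7.48% were higher. They were Got1 and Iars, each higher, with log2 fold changes of 0.24 and 0.21 (edgeR adjusted p = 0.0384 and 0.0323). The call of Got1 was lost without library 2, 3, 5, 7, 8 or 9 (0.19 to 0.29) and that of Iars without library 1, 2, 7, 8 or 9 (0.18 to 0.24). Total counts as the scaling removed both calls, and the length correction that of Iars.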
